A study of Mus musculus with 5 samples.

Results

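The genes described here are 9 markers of the subfields of the hippocampus, Prox1, C1ql2, Dsp, Lct, Tdo2, Spink8, Fibcd1, Wfs1 and Zbtb20, out of 47729 genes in a deposited count table. They were taken by symbol, and each symbol matched 1 Ensembl gene of the table through the GENCODE M21 annotation. The measurements are RNA sequencing of brain from male mice of the inbred strain C57BL/6 aged 30 months, 5 libraries in a single group, with no allele or treatment named in the labels. The libraries are called mice 7, 8, 9, 10 and 11 after the numbers in their titles. The labels do not say outright that each number is a separate animal, so the spread between samples may in part be technical. With no other age, sex or region to set against, the design allows the level of each gene to be given in every mouse, the genes to be ordered, and the spread between mice to be tested. Errors are SDs with n = 5 unless another n is given.

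The hippocampus stores spatial and episodic memory and is built as a loop of neuron types. Granule cells of the dentate gyrus receive cortical input and send mossy fibres to the pyramidal cells of CA3, which project to those of CA1, while CA2 is a small field between them. Each field has its own set of strongly expressed genes. Prox1, C1ql2, Dsp, Lct and Tdo2 are known from dentate granule cells, Spink8, Fibcd1 and Wfs1 from CA1 pyramidal cells, and Zbtb20 from both. Few are exclusive to the hippocampus: Prox1 is also made by some cortical interneurons and thalamic cells, Wfs1 by striatal and cortical neurons, Dsp by meningeal cells and Zbtb20 by astrocytes. The labels do not say how much of the brain was taken. In such tissue, fewer cells of a type and less RNA per cell cannot be told apart.

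The libraries held between 15392006 and 18723390 counts, and markers of forebrain neurons and astrocytes were abundant in all of them (Slc17a7 at 271 to 520 RPKM, Slc1a2 at 213 to 349 RPKM). RPKM divide a gene's count by its length and by the library's total, which was here each library's own. The library of mouse 11 stood apart in base composition. Over 16264 genes, the Spearman correlation between the GC content of the longest transcript and a gene's deviation from its mean over the mice was 0.70 in mouse 11, -0.41 in mouse 7, -0.39 in mouse 8, -0.33 in mouse 9 and -0.03 in mouse 10. These correlations are across genes of the same libraries and describe those libraries only. Deviations are taken from the mean over all mice, so a positive trend in mouse 11 pulls the correlations of the others down. The members' results that rest on mouse 11 are therefore also given without it, or after the GC and length trends of each library were removed.

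The members differ widely in base composition, which matters for how they are read in mouse 11. Transcript GC content was 63.4% for C1ql2, 59.4% for Fibcd1, 57.8% for Wfs1, 52.9% for Lct, 51.8% for Dsp, 46.0% for Spink8, 45.3% for Prox1, 43.0% for Zbtb20 and 39.6% for Tdo2. The middle 90 bases of the longest coding exon, from the GENCODE M21 transcripts and printed 5′ to 3′ on the coding strand, show the range for the member with the highest GC content, the CA1 member with the highest, and the member with the lowest. Capitals mark G and C.
C1ql2: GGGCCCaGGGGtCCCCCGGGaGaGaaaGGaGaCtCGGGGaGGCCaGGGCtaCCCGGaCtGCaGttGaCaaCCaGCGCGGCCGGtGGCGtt
Fibcd1: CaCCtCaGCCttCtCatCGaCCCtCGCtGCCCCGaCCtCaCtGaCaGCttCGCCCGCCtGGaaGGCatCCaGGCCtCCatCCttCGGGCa
Tdo2: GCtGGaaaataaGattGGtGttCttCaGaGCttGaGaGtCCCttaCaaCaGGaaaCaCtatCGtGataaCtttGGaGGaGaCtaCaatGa
On GRCm38 the stretch of C1ql2 lies in exon 1 on the plus strand (chr1:120341415-120341504), that of Fibcd1 in exon 2 on the minus strand (chr2:31838490-31838579) and that of Tdo2 in exon 6 on the minus strand (chr3:81968134-81968223). G and C made up 71.1%, 65.6% and 41.1% of the 3 stretches.

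Per length, Wfs1 was the most abundant member by a wide margin. It encodes wolframin, a membrane protein of the endoplasmic reticulum, and its gene lies on chromosome 5 from 36966104 to 36989205 (ENSMUSG00000039474). All 9 members are annotated as protein coding. Its level was 40.4, 40.9, 48.7, 45.3 and 59.7 RPKM in mice 7 to 11, a mean of 47.0 ± 7.88 RPKM from 2381 to 4234 counts. Mouse 11 was highest and mice 7 and 8 lowest, and the mean without mouse 11 was 43.8 ± 3.93 RPKM (n = 4).

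Fibcd1 encodes a transmembrane receptor with a fibrinogen-like domain that binds acetylated sugars (ENSMUSG00000026841, chromosome 2 from 31813290 to 31846005). It had 6.42, 6.14, 7.98, 6.21 and 9.58 RPKM in mice 7 to 11, a mean of 7.26 ± 1.50 RPKM. As for Wfs1, mouse 11 was highest and mouse 9 second, and the mean without mouse 11 was 6.69 ± 0.872 RPKM (n = 4).

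Spink8, a member of the Kazal family of secreted serine protease inhibitors (ENSMUSG00000050074, chromosome 9 from 109812280 to 109826633), did not follow the other CA1 members in mouse 11. It had 2.19, 2.29, 3.89, 1.59 and 1.50 RPKM in mice 7 to 11, a mean of 2.29 ± 0.959 RPKM. Mouse 9 was highest and mouse 11 lowest. These levels come from only 28, 29, 50, 21 and 23 counts. The exact Poisson 95% interval, which covers counting error only, was 37.1 to 65.9 counts in mouse 9 and 14.6 to 34.5 in mouse 11, so these did not overlap. Those were its highest and lowest mice, and the share of all genes with such a gap was not computed. In the edgeR test described further on, its unadjusted p was 0.375.

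Prox1 was the most abundant and the steadiest of the dentate members. It is a homeobox transcription factor that sets and maintains granule cell identity (ENSMUSG00000010175, chromosome 1 from 190118035 to 190170714). Its level was 6.74, 6.73, 6.33, 7.17 and 5.70 RPKM in mice 7 to 11, a mean of 6.53 ± 0.553 RPKM. The highest value, in mouse 10, was 1.26 times the lowest, in mouse 11.

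C1ql2 encodes a secreted C1q-like protein that organises glutamate receptors at mossy fibre synapses (ENSMUSG00000036907, chromosome 1 from 120340582 to 120343174). It had 3.28, 4.19, 3.48, 3.55 and 6.09 RPKM in mice 7 to 11, a mean of 4.12 ± 1.15 RPKM, from 102, 129, 109, 114 and 228 counts. Mouse 11 lay above the other 4, which had a mean of 3.63 ± 0.394 RPKM (n = 4). Mouse 11 was thus the highest of the mice for C1ql2 and the lowest for Prox1, although both mark granule cells. With the GC and length trends removed, C1ql2 was no longer high in mouse 11 (-0.15 in log2, beside -0.13 in mouse 7). Counting error alone would give an SD of about 0.13 for it. Prox1 was then highest in mouse 11 (0.22).

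Dsp and Lct were expressed near 1 RPKM. Dsp encodes desmoplakin, which links desmosomes to intermediate filaments (ENSMUSG00000054889, chromosome 13 from 38151294 to 38198577), and had 1.36, 1.49, 1.14, 1.39 and 1.01 RPKM in mice 7 to 11, a mean of 1.28 ± 0.194 RPKM. Lct encodes the disaccharidase lactase (ENSMUSG00000026354, chromosome 1 from 128284756 to 128328318), and had 1.06, 0.781, 1.27, 0.866 and 0.951 RPKM, a mean of 0.986 ± 0.188 RPKM. Mouse 11 was lowest for Dsp and in the middle for Lct, which peaked in mouse 9 and had its minimum in mouse 8. Strand use in counting was not given in the sources used here, and an unstranded count could mix in reads of genes on the opposite strand: Gm10129 covers 5.17% of the exon bases of Dsp and Prox1os 1.59% of those of Prox1.

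Tdo2 was the least abundant member and had the widest spread. It encodes tryptophan 2,3-dioxygenase, which opens the indole ring at the start of the kynurenine pathway and is best known from liver (ENSMUSG00000028011, chromosome 3 from 81957090 to 81976202). Its counts were 42, 20, 21, 24 and 6 in mice 7 to 11, which correspond to 0.696, 0.335, 0.345, 0.385 and 0.0826 RPKM and a mean of 0.369 ± 0.218 RPKM. Mouse 7 was highest and mouse 11 lowest, 8.43-fold apart, and mice 8, 9 and 10 lay close together. The exact Poisson 95% intervals of mice 7 and 11 did not overlap (30.3 to 56.8 counts against 2.20 to 13.1). Scaled to RPKM, the interval of mouse 11 (0.0303 to 0.180) also lay below those of mice 8 (0.205 to 0.517), 9 (0.214 to 0.528) and 10 (0.247 to 0.574). These intervals cover counting error only, and mice 7 and 11 were set against each other as the highest and lowest. Over the genes tested, these libraries differed with a chi-square of 102 per gene against sampling noise. The share of all genes with such a gap was not computed.

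Zbtb20, a zinc finger repressor needed for the formation of CA1 and the dentate gyrus, had the largest spread after Tdo2 in log2 CPM as measured, and a smaller one than Spink8, Lct, Fibcd1 and Dsp after removal of the trends in GC and length. It spans 42875881 to 43642602 on chromosome 16 (ENSMUSG00000022708), with 30730 exon bases. Its level was 8.86, 6.19, 5.35, 5.52 and 2.71 RPKM in mice 7 to 11, a mean of 5.72 ± 2.20 RPKM, from 4233, 2928, 2574, 2721 and 1557 counts. Mouse 7 was highest and mouse 11 lowest, 3.27-fold apart, and counting error alone comes to 1.89% of its mean.

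**Figure D1:**
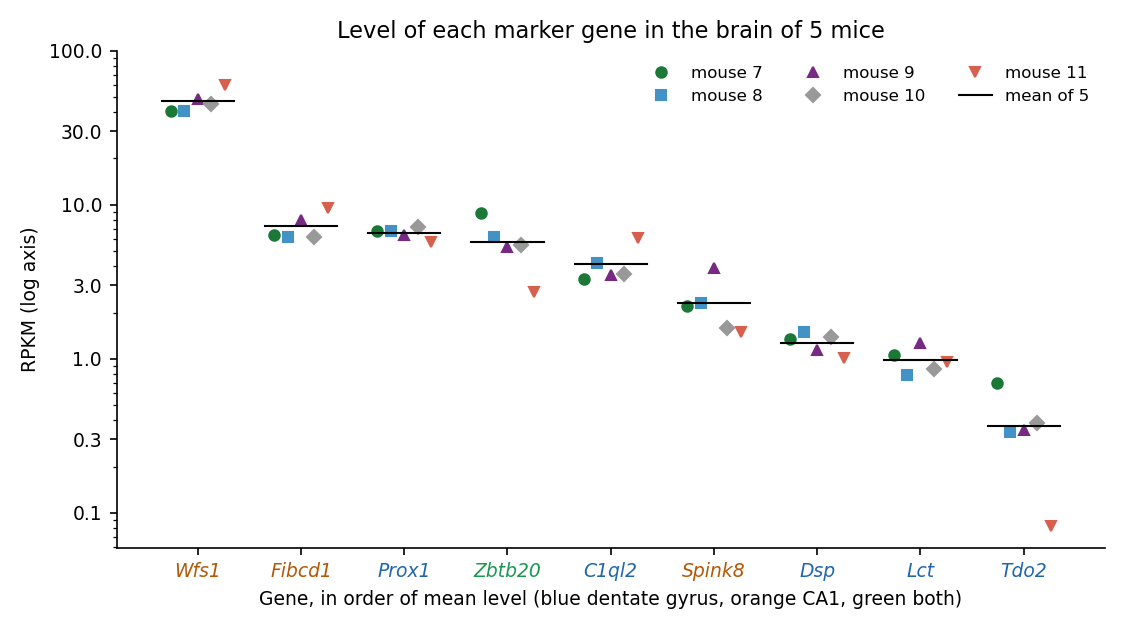
Level of the 9 marker genes (x axis, in order of mean level) in RPKM on a log axis, with 1 symbol per mouse and a line at the mean of the 5 mice. Wfs1 lies between 40.4 and 59.7 RPKM, above all other members in every mouse, and Tdo2 lies lowest, at 0.0826 to 0.696 RPKM.

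The order of the members by mean level per length was Wfs1, Fibcd1, Prox1, Zbtb20, C1ql2, Spink8, Dsp, Lct and Tdo2, as the plot of levels by mouse shows. Wfs1 ranked first and Tdo2 last in all 5 mice. Of 8 neighbouring pairs in this order, 3 had the same gene higher in every mouse: Wfs1 over Fibcd1 by 2.68 ± 0.10, Spink8 over Dsp by 0.73 ± 0.56 and Lct over Tdo2 by 1.34 ± 0.76, as log2 ratios of RPKM with 0.1 added. By sign flips of the ratios in an exact permutation test (two-sided, 5 mice), each of these reached p = 0.0625, the smallest that 5 mice allow, so that no pair could pass 0.05 (Benjamini-Hochberg adjusted over the 8 pairs, 0.167).

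In the other 5 pairs the order was not the same in every mouse. Fibcd1 exceeded Prox1 by 0.13 ± 0.40 in log2 and was higher in 2 of 5 mice (exact permutation p = 0.625, adjusted 0.625), and without mouse 11 the mean turned to -0.02. Prox1 over Zbtb20 was 0.28 ± 0.52 (4 of 5 mice, exact permutation p = 0.375, adjusted 0.429) and Zbtb20 over C1ql2 0.41 ± 0.94 (4 of 5, exact permutation p = 0.312, adjusted 0.417). The last pair ran from 1.41 in mouse 7 to -1.14 in mouse 11, the only mouse where C1ql2 was the higher. C1ql2 over Spink8 was 0.86 ± 0.77 (4 of 5, exact permutation p = 0.125, adjusted 0.25) and Dsp over Lct 0.35 ± 0.40 (4 of 5, exact permutation p = 0.188, adjusted 0.3), and mouse 9 was the exception in both. Without mouse 9 the number of pairs with 1 order in every mouse was 5.

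To ask whether any member varied between mice more than genes of its abundance do, each gene's dispersion in an edgeR quasi-likelihood fit was compared with that of the 16318 genes whose mean count reached 10. All 9 members passed that minimum. None was called at an adjusted p of 0.05, where the background was 0%, as no gene of the table was called. The test can miss large differences: the cerebellar gene Fat2, with counts from 9 to 638, had an adjusted p of 0.731 in edgeR. The absence of calls therefore does not show low variation. By an unadjusted p under 0.05 the background was 4.99% (814 genes), and 1 of 9 members fell under it, Zbtb20, whose adjusted p in edgeR was 0.970. The distribution that gave p was fitted to these same genes, so a share near the threshold follows largely from the fit. With the GC and length trends removed, 0 of 9 members had an unadjusted p under 0.05, with or without mouse 11. DESeq2 flagged 49 genes as dispersion outliers (0.300% of those tested), and 0 members. Over the edgeR settings tried the adjusted p of Zbtb20 ran from 0.0650, with no minimum on counts, to 0.998, without both mouse 11 and the GC and length trends.

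Tdo2 had an adjusted p of 0.984 in the same edgeR test, and the adjusted p of the other 7 lay between 0.987 and 0.999. By Dixon's criterion, a gap to the nearest value above 0.71 of the range, 0 of 9 members had a mouse far from the other 4, where 12.0% of the genes tested did.

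The SD over mice of log2 CPM (counts scaled to a common library total with TMM factors, prior count 1) had a median of 0.31 over the members and 0.30 over all genes tested. It was 1.03 for Tdo2, 0.60 for Zbtb20, 0.53 for Spink8, 0.37 for C1ql2, 0.31 for Fibcd1, 0.28 for Lct, 0.25 for Wfs1, 0.20 for Dsp and 0.10 for Prox1. Counting error alone would give about 0.37 for Tdo2 and 0.27 for Spink8, against 0.03 for Zbtb20 and Wfs1. The spread of Spink8 was 0.29 without mouse 9. Without mouse 11 it was 0.48 for Tdo2, 0.33 for Zbtb20, 0.14 for C1ql2, 0.19 for Fibcd1, 0.14 for Wfs1 and 0.06 for Prox1, each smaller by more than 1.5 times, and the median over the members was 0.19.

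**Figure D2:**
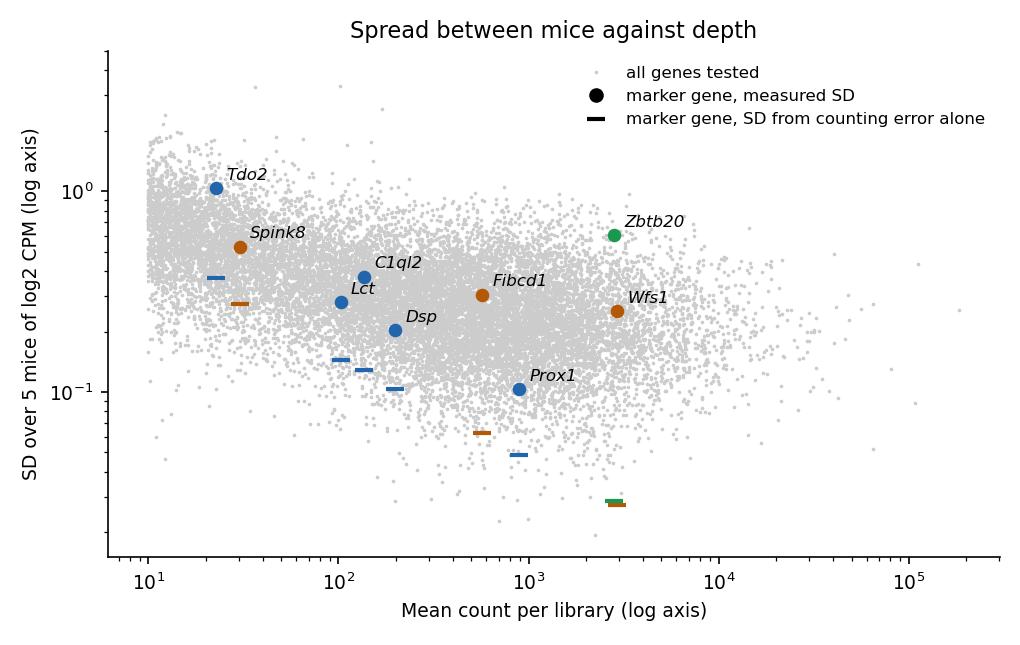
SD over the 5 mice of log2 CPM (y axis, log) against mean count per library (x axis, log) for all 16318 genes tested (grey) and the 9 members (colours: blue dentate gyrus, orange CA1, green Zbtb20), with a bar at the SD that counting error alone would give. The members lie within the cloud of genes of like abundance, Zbtb20 (0.60) near its upper edge and Prox1 (0.10) near its lower edge.

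Of the 9 members, 3 were highest and 5 lowest in mouse 11, against 35.8% and 34.2% of the genes tested. The 3 highest there were C1ql2, Fibcd1 and Wfs1, the members with the highest GC content, at 1.68, 1.43 and 1.36 times the mean of the other mice. The 5 lowest were Tdo2, Zbtb20, Spink8, Dsp and Prox1, at 0.187, 0.418, 0.600, 0.753 and 0.845 times that mean. Both sets held genes of the dentate gyrus and of CA1. Across the 9 members the Spearman correlation of GC content with the deviation was 0.95 in mouse 11 and -0.83 in mouse 7, a description of 9 genes in single libraries. The value of mouse 7 is in part the counterpart of that of mouse 11, as deviations are from the mean over all mice.

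**Figure D3:**
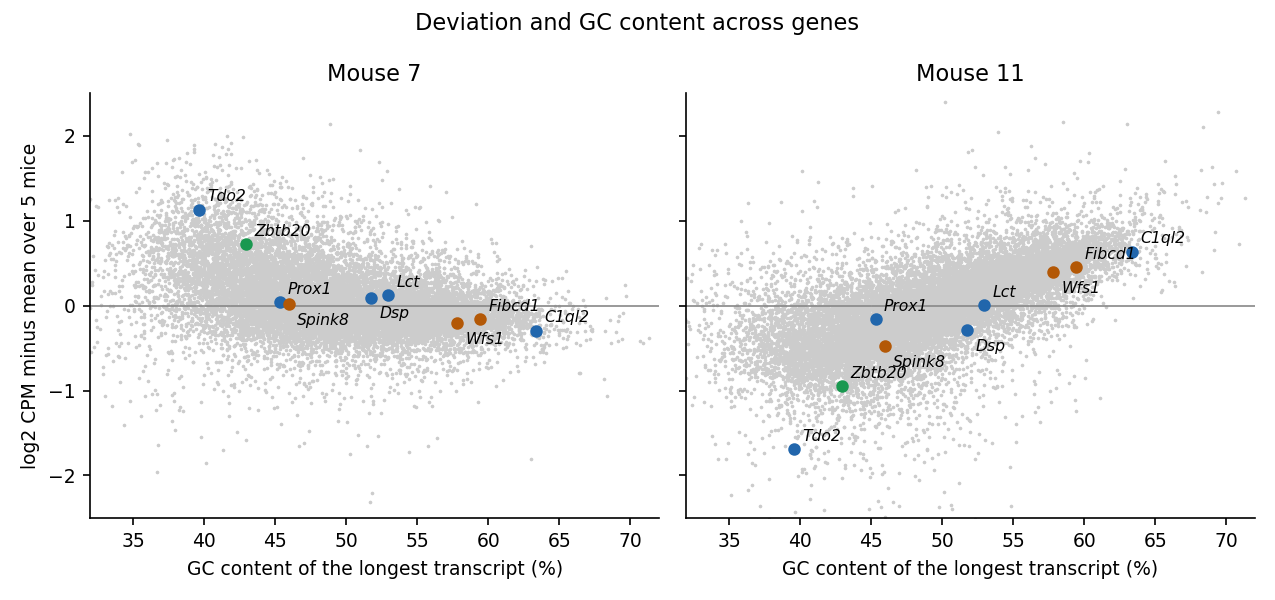
Deviation of log2 CPM from the mean over 5 mice (y axis) against transcript GC content in percent (x axis) in mouse 7 (left) and mouse 11 (right), for the genes tested (grey; 99 lie outside the axes or have no GC value) and the 9 members (blue dentate gyrus, orange CA1, green Zbtb20). In mouse 11 the members climb from Tdo2 at -1.69 to C1ql2 at 0.63, in the same direction as the other genes. Tdo2 lies well below their slope, and stays at -1.24 when the GC and length trends are removed.

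When the GC and length trends fitted over all genes were removed from each library, the deviation of mouse 11 went from 0.63 to -0.15 for C1ql2, from 0.46 to -0.08 for Fibcd1, from 0.40 to -0.05 for Wfs1 and from -0.95 to -0.36 for Zbtb20. Tdo2 kept a low value in mouse 11, -1.24 after -1.69, on 6 counts. Prox1 moved from -0.16 to 0.22, and was then highest in mouse 11. Dsp stayed lowest in mouse 11, at -0.30 after -0.29, and Spink8 went from -0.47 to -0.28. Of the 9 members, 1 was then highest and 4 lowest in mouse 11, against 30.1% and 25.6% of the genes tested. The SD over mice was then 0.21 for Zbtb20, or 0.06 without mouse 11 as well, 0.17 for C1ql2, 0.14 for Wfs1 and 0.75 for Tdo2. For Prox1 it rose from 0.10 to 0.15, and for Dsp and Lct from 0.20 to 0.21 and from 0.28 to 0.29. The median over the members was then 0.21, and over all genes tested 0.23.

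With these trends removed, the 3 CA1 members Spink8, Fibcd1 and Wfs1 were each highest in mouse 9, with deviations of 0.83, 0.38 and 0.25, and so was Lct, with 0.43. Among the genes tested 18.1% were highest in that mouse on the same scale. Of the cortical and striatal genes described further on, 4 of 7 and 5 of 7 were also highest in mouse 9 on that scale, and 1 of 6 other CA1 genes was. This pattern was seen in the data after the trends were removed, and it was not tested.

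**Figure D4:**
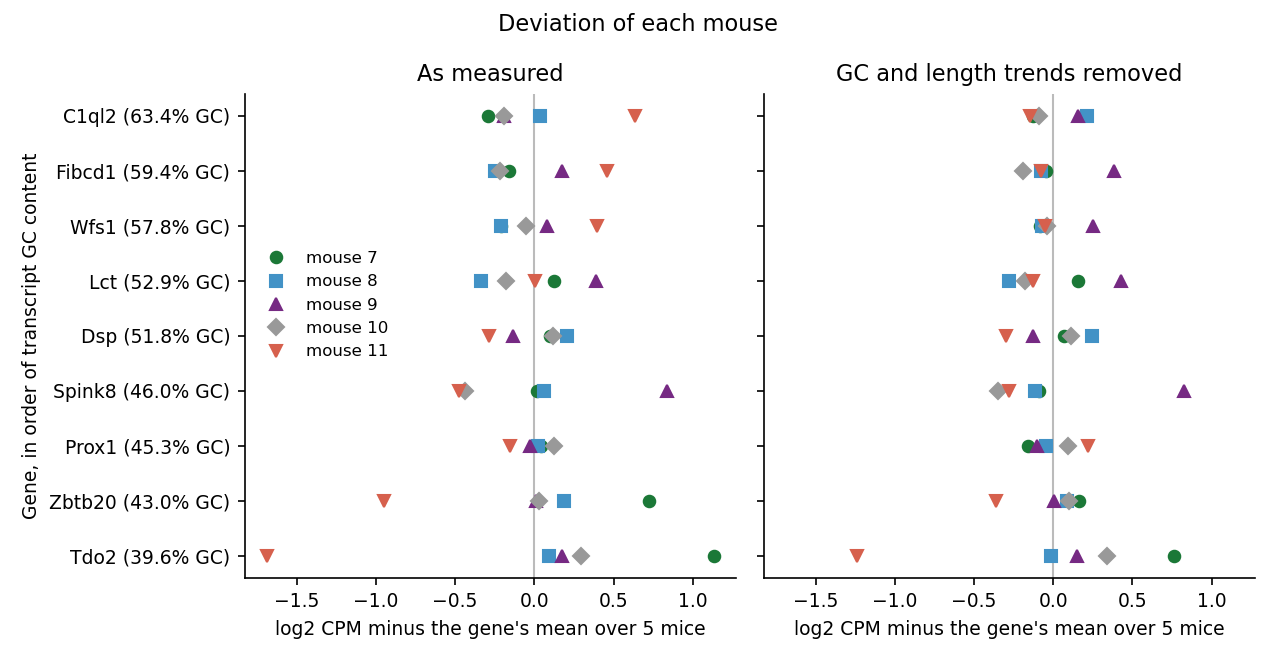
Deviation of log2 CPM from each gene's mean over the 5 mice (x axis) for the 9 members, listed from the highest to the lowest transcript GC content, as measured (left) and with the GC and length trends of each library removed (right). Mouse 11 runs from the right at C1ql2 to the left at Tdo2 in the first panel, and in the second keeps a clear distance from 0 for Tdo2 (-1.24).

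Further genes known from the subfields were measured alongside. Of 10 other dentate genes, 0 were called and 2 had an unadjusted p under 0.05. Dock10 was at 5.80 RPKM in mouse 7 and 1.65 in mouse 11, with a mean of 3.41 ± 1.51 RPKM. Trhr, the receptor of thyrotropin-releasing hormone, stood at 2.23 RPKM in mouse 7, while the other mice had 0.588 to 0.835. The calcium buffer Calb1 was the most abundant of the list, at 20.4 ± 5.33 RPKM, and the cytokine gene Il16 the least, at 0.806 ± 0.325 RPKM. The list's median deviation was 0.32 in mouse 7 and -0.19 in mouse 11, and 0.17 and -0.02 with the trends removed.

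Of 6 other CA1 genes, 0 were called and 1 had an unadjusted p under 0.05, the POU transcription factor Pou3f1, whose level was 8.80 RPKM in mouse 11 and between 2.34 and 3.69 elsewhere. Its GC content was 63.9%, and its SD in log2 CPM was 0.75 as measured and 0.35 with the trends removed. Mpped1 was the most abundant of them, at 44.8 ± 8.73 RPKM, close to the level of Wfs1, and the receptor Gpr161 the least, at 3.71 ± 0.410 RPKM. The list's median deviation in mouse 11 was 0.26, and 0.33 with the trends removed, where 5 of the 6 genes were highest in that mouse, against 30.1% of all genes tested on that scale. The CA1 members had a median of 0.40 there, and of -0.08 with the trends removed, so the list and the members parted in that mouse. Pou3f1 and Mpped1 are also expressed in cortex, whose list had medians of 0.47 and 0.12 in mouse 11.

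The fields without a member were measured too. Of 5 CA2 genes, 0 were called and 0 had an unadjusted p under 0.05. Pcp4, a calmodulin regulator also made in striatum and cerebellum, had 68.1 ± 9.19 RPKM and the kinase Map3k15 0.549 ± 0.188 RPKM. Of 6 CA3 genes, 0 were called and 1, Bok, a BCL2 family member, had an unadjusted p under 0.05. It had the highest level of the list, 12.4 ± 5.28 RPKM, reaching 21.8 RPKM in mouse 11 against 9.11 to 10.7 in mice 7 to 10, and a GC content of 61.0%. Its SD in log2 CPM was 0.53 as measured and 0.21 with the trends removed. Iyd, which recovers iodide from iodotyrosines, was the lowest, at 0.478 ± 0.161 RPKM.

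**Figure D5:**
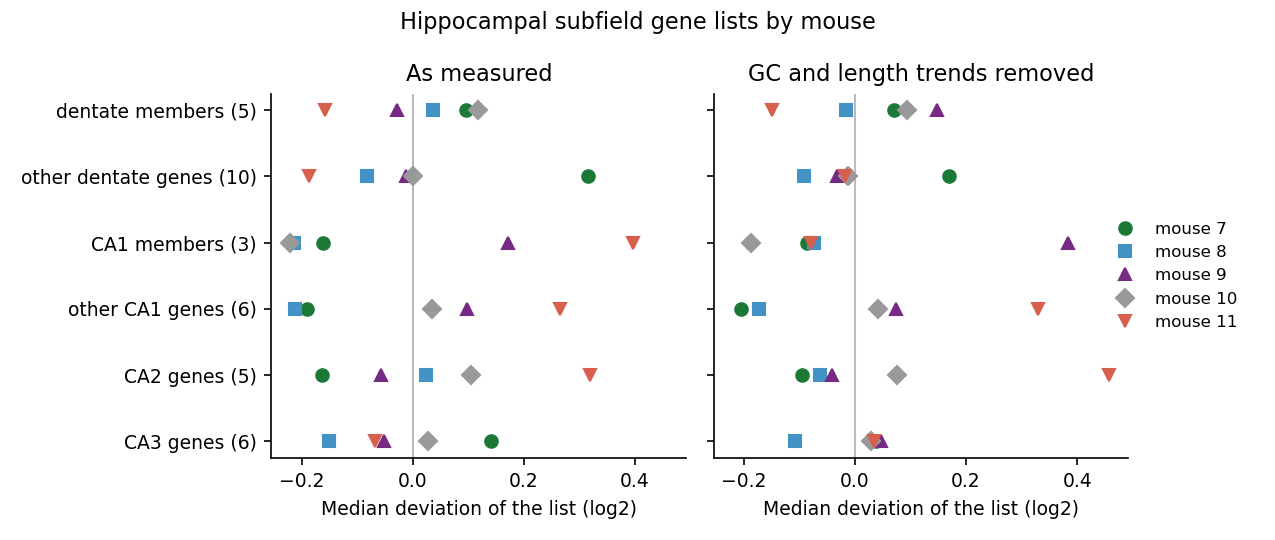
Median deviation in log2 CPM (x axis) of the genes of each subfield list in each mouse, as measured (left) and with the GC and length trends of each library removed (right), for the members and the other genes of the dentate gyrus and CA1 and for CA2 and CA3. The CA1 members are highest in mouse 11 on the left (0.40) and in mouse 9 on the right (0.38).

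Genes that work with single members gave 0 calls as well. C1q-like proteins bridge presynaptic neurexin 3 and postsynaptic kainate receptors or the adhesion receptor Adgrb3, and 7 of 8 genes of this group, C1ql2 included, were tested, with 0 at an unadjusted p under 0.05. Nrxn3 was the highest at 22.2 ± 1.80 RPKM and C1ql4 the lowest at 0.488 ± 0.223 RPKM. C1ql3, the closest in use to C1ql2 at mossy fibre synapses, had 15.1, 12.3, 15.1, 12.5 and 11.02 RPKM in mice 7 to 11, so that it was lowest in mouse 11, where C1ql2 was highest. With the trends removed C1ql2 was at -0.15 in log2 there and at -0.13 in mouse 7, so it was no longer high in mouse 11.

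Of 11 genes of tryptophan breakdown, Tdo2 included, 5 reached the count minimum, and 0 of them had an unadjusted p under 0.05. The transaminase Kyat1 was the highest at 4.47 ± 0.935 RPKM, and Kynu the lowest with a mean of 2.2 counts per library. Ido1, which catalyses the same step as Tdo2, had 0.599, 0.926, 1.29, 1.95 and 0.673 RPKM in mice 7 to 11. Its peak was in mouse 10, and its minimum in mouse 7, where Tdo2 peaked. Of 6 desmosome genes, Dsp included, 0 had an unadjusted p under 0.05. Pkp4 was the highest at 61.6 ± 7.15 RPKM and Dsc2 the lowest at 0.198 ± 0.042 RPKM.

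Genes of other cells and regions that share members with the hippocampus were set beside them, and their part in the members' values was not tested. None of these genes was at 0 in every library or called in edgeR. The summed level of 7 astrocyte genes ran from 4393 CPM in mouse 11 to 6282 in mouse 8, and the level of Zbtb20 from 83.2 CPM in mouse 11 to 272 in mouse 7. Most of the astrocyte sum was Slc1a2, with a mean count of 64527 against 10558 for Slc1a3, the next. Of the 7 genes, 3 were highest and 2 lowest in mouse 11, against 35.8% and 34.2% of the genes tested. Slc1a2 was the highest of these astrocyte genes at 305 ± 55.7 RPKM, Sox9 the lowest at 8.69 ± 2.84 RPKM, and the water channel Aqp4, with an unadjusted p of 0.021 in edgeR, was at 42.7 RPKM in mouse 7 and 13.7 in mouse 11. Aqp4 had its highest and lowest mouse in common with Zbtb20, and a GC content of 41.4%, but it was the only 1 of the 7 highest in mouse 7, where 3 were lowest. Sox9 ran the other way, from 5.89 RPKM in mouse 7 to 13.1 in mouse 11. With the trends removed the SD of Aqp4 was 0.30 in log2, after 0.57.

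Meningeal genes, beside Dsp, summed to 137 CPM in mouse 7 and 190 in mouse 11, where Dsp was lowest, with Igf2 at 15.3 ± 2.57 and Col3a1 at 0.409 ± 0.070 RPKM. Interneuron genes of the type that can express Prox1 summed to 367 CPM in mouse 11 and 422 in mouse 9, with Calb2 at 43.8 ± 8.94 and Adarb2 at 2.48 ± 0.573 RPKM. Thalamic genes summed to 228 to 260 CPM, with Prkcd at 20.0 ± 3.13 and Gbx2 at 0.837 ± 0.216 RPKM.

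The sums of cortical and of striatal genes, beside Wfs1, were lowest in mice 8 and 7 and highest in mouse 11, from 1197 to 2005 and from 451 to 692 CPM. Most of the cortical sum was Slc17a7, with a mean count of 16980 against 2278 for Tbr1, the next. The median deviations of the cortical and striatal lists in mouse 11 were both 0.47 as measured, and 0.12 and 0.06 with the trends removed. The cortical list ran from Emx1 at 3.50 ± 1.15 to Slc17a7 at 348 ± 101 RPKM and the striatal list from Gpr6 at 5.32 ± 1.16 to Ppp1r1b at 59.0 ± 16.9 RPKM. Choroid plexus genes summed to 474 to 727 CPM, with Ttr at 404 ± 70.5 and Prlr at 0.661 ± 0.329 RPKM. Cerebellar genes were the exception in size: 5 of 7 had an unadjusted p under 0.05 in edgeR, and their sum ran from 95.5 CPM in mouse 11 to 250 in mouse 10. That sum is weighted towards Calb1, with a mean count of 1584. The list's median deviation was 0.89, -0.88, -1.20, 2.56 and -1.23 in mice 7 to 11, and counts of Fat2 were 160, 21, 15, 638 and 9. The libraries thus differed widely in cerebellar RNA, and whether the tissue taken differed was not tested. Pcp2 was the lowest of that list at 0.555 ± 0.764 RPKM and Calb1, which dentate granule cells share, the highest. The dentate members' sum ran from 76.1 CPM in mouse 11 to 87.6 in mouse 10, a 1.15-fold range. Prox1 made up most of that sum, at a mean of 54.8 CPM. Highest over lowest mouse was 1.26 for Prox1, 1.47 for Dsp, 1.62 for Lct, 1.86 for C1ql2 and 8.43 for Tdo2.

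The genes whose deviations over the 5 mice came nearest to those of the 3 most variable members were sought among the genes whose mean count reached 100 (11194 genes, or 11193 where the member itself was one of them). For Zbtb20 these were Ankrd28 and Rnmt, with root mean square differences of 0.032 and 0.033 in log2, and GC contents of 43.2% and 43.0%. For Tdo2 they were the zinc finger genes Zfp420 and Zfp715 (0.158 and 0.206), with 42.4% and 41.2% GC. For Spink8 they were Nt5e and Gtf2f2 (0.219 and 0.225), with 48.0% and 46.5% GC. Likeness over 5 mice is a description of these libraries.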

How the data were processed

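For 5 mouse brain libraries, made with an mRNA kit per the labels, the authors deposited a table of raw counts and one of RPKM. The tools named are featureCounts 1.4.6-p4, STAR 2.4.1d and CASAVA 1.7, and the build is GRCm38, per the submitters' processing notes. Annotation release, strand setting and read filters are not given in the sources used here. Among 12729 well-counted genes the deposited RPKM implied 1 gene length within 1% for 0 genes with each library's own total and for 12729 with the 5 totals taken in turn down the table, so RPKM were recomputed with each library's total and the implied length. Gene symbols, coordinates and transcript GC content come from GENCODE M21 (47224 of 47729 genes matched; unmatched ones held 0.0770% of counts).

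Variation between mice was tested with edgeR 4.0.16: an intercept-only quasi-likelihood fit with TMM scaling, in which limma 3.58.1 fitted a robust F distribution of dispersions along abundance, with Benjamini-Hochberg adjustment over the 16318 genes whose mean count reached 10. DESeq2 1.42.0, other scalings and minimums, other pseudocounts, the deposited RPKM, annotated exon lengths and each mouse left out were alternatives. GC and length trends were natural splines (5 degrees of freedom each) fitted to each library's deviations. The code was tested on simulated data. Every pair of libraries differed beyond sampling noise (6.97 to 102 in chi-square per gene), so all 5 counted as samples. Separate preparations from the same animal could also differ so, and this does not show that the samples are separate animals. Total counts of 15392006 to 18723390 per library set the precision. Of the 9 members none had 0 counts in a library. The members and lists were chosen with earlier results of these data known. Besides all members, the highest and lowest gene of each list in RPKM, any called gene, and for the 3 most variable members the 2 nearest genes are named; Dock10, Trhr, Pou3f1, Aqp4, C1ql3, Ido1 and Slc1a2's values by mouse were chosen after their values were seen.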

Additional observations from a re-analysis of the deposited data

Results flagged for a closer look

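Of the 9 members and 29 further genes named by list, 6 genes, none of them a member, had 1 mouse far from the other 4 in RPKM, with a gap above 0.71 of the range. Chance flags about 1 in 20 such groups, and 12.0% of all genes tested met the same criterion. In mouse 11 the CA3 gene Bok (gap 0.879 of the range), the cortical vesicular glutamate transporter Slc17a7 (0.724) and the striatal phosphoprotein gene Ppp1r1b (0.753) were highest, and the desmosome gene Pkp4 (0.864) and the CA2 gene Pcp4 (0.721) lowest. After removal of the trends in GC and length, the SD over mice in log2 CPM went from 0.53 to 0.21 for Bok, from 0.40 to 0.21 for Slc17a7, from 0.39 to 0.15 for Ppp1r1b, from 0.19 to 0.17 for Pcp4 and from 0.16 to 0.22 for Pkp4. In mouse 10 the Purkinje cell gene Pcp2 was highest (0.734).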

How the results depend on the processing

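The number of members called variable was 0 under every setting run, including each mouse left out (0 to 0). The number of genes called over the table was 0 with all 5 mice and in each fit with 1 mouse left out (0 to 0), 230 with no minimum beyond 1 count, 49 by DESeq2's outlier flag and 2 without both mouse 11 and the GC and length trends. The edgeR settings with trends were chosen after seeing the data. The cause of these differences was not tested. The number of neighbouring pairs in 1 order in every mouse was 3, and 3 to 5 with 1 mouse left out, 5 without mouse 9. The log2 ratio of Fibcd1 over Prox1 was 0.13, and -0.0188 to 0.217 with 1 mouse left out, the negative value being that without mouse 11. The number of members with a mouse far from the other 4 was 0 and became 2, C1ql2 and Spink8, with deposited RPKM, whose totals belong to other libraries for most values. The median SD of the members lay between 0.19 and 0.34 with 1 mouse left out, and their median level between 3.63 and 4.33 RPKM. Depth limits Tdo2 and Spink8, whose counting error alone comes to 21.0% and 18.2% of their mean. No comparison between groups of samples, paired or not, was possible because all samples belong to 1 group. The ratios of neighbouring members were paired within each library.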
